A study of Mus musculus with 14 samples.

Results

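Tgfbi, Vldlr, Rcvrn and Tmem215 are 4 of the 24833 genes counted in hematopoietic stem cell-enriched mouse marrow, and they were picked because their RNA was strongly higher after both short and prolonged exposure to interleukin-1 beta (IL-1β). The choice used the measured values of both IL-1β comparisons, so the levels and fold changes of these 4 genes are given as a description, with no test. C57BL/6 mice, of an age not given in the sources used here, were injected intraperitoneally with IL-1β at 0.5 µg per mouse per day, or with phosphate-buffered saline (PBS). Treatment lasted 1 day (3 IL-1β and 3 PBS libraries) or 20 days (4 and 4), and no genotype other than the strain is given for any group. Bone marrow cells with the phenotype LSK/Flk2-/CD48-/CD150+ were sorted, with each library made from a pool of 3 to 5 mice and described by the submitters as a biological replicate. Values are CPM, each gene's share of the library's counts on a fixed scale, with TMM factors that correct library totals for composition.

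IL-1β is a cytokine made at infection and injury. It binds the receptor formed by Il1r1 and Il1rap, and the signal runs through MyD88 and kinases of the IRAK family to NF-kB and MAP kinases. In the marrow, IL-1β is known to push stem cells toward myeloid output. The 4 genes are taken one by one, since their products have unlike roles. Tgfbi encodes a secreted matrix protein built of FAS1 domains that binds integrins and collagens, and it was named for its induction by TGF-β. Vldlr encodes a lipoprotein receptor that takes up apolipoprotein E-rich lipoproteins and also transmits the reelin signal in neurons. Rcvrn encodes recoverin, an EF-hand calcium sensor known from photoreceptors, where it takes part in adaptation to light. Tmem215 encodes a transmembrane protein, and no role is stated for it here.

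All 4 genes lie on the plus strand and are protein coding in GENCODE M21 (GRCm38). Tgfbi (ENSMUSG00000035493) spans chromosome 13, 56609523 to 56639562. Vldlr (ENSMUSG00000024924) spans chromosome 19, 27216484 to 27254231. Rcvrn (ENSMUSG00000020907) spans chromosome 11, 67695326 to 67703333, and lies within the span of Glp2r, a gene of the minus strand, without sharing an exon with it. Tmem215 (ENSMUSG00000046593) spans chromosome 4, 40472180 to 40477168. The other 3 genes overlap no annotated gene. SMARTer and Nextera XT libraries carry no strand information, which leaves Rcvrn and Glp2r reads alike in that respect, and Glp2r had at most 2 counts in any library.

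Because the 3 genes with an entry in the RefSeq promoter table (GRCm38.p6) were higher in the same libraries, the sequence just before their starts is shown. It ends before the first annotated transcript base. Capitals mark a match on either strand to the C/EBP motif TTNCNNAA, the only motif of those searched that was found here.
Tgfbi, chr13:56609336-56609522, plus strand: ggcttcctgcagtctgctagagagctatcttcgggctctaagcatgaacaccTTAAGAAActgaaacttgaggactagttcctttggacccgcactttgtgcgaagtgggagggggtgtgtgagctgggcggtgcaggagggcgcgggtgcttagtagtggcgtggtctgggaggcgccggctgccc
Vldlr, chr19:27216234-27216483, plus strand: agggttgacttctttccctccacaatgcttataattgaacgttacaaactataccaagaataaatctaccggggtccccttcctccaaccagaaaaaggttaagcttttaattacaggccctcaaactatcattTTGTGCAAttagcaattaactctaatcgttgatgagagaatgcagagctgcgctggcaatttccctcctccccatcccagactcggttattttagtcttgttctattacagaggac
Tmem215, chr4:40471930-40472179, plus strand: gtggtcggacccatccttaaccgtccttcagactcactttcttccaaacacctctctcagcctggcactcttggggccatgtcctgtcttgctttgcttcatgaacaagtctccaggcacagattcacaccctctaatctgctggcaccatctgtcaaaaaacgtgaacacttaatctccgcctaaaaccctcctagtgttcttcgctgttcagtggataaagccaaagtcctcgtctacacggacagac

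In the 250 bases before the RefSeq start, Tgfbi and Vldlr each held 1 C/EBP match and Tmem215 held none, and 36.8% of 32851 promoter windows of that length hold at least 1. The kappaB motif (in 3.9% of windows), the AP-1 motif TGANTCA (6.75%), the PU.1 core GGAAGT (19.7%), the STAT motif TTCNNNGAA (7.02%) and the SMAD palindrome GTCTAGAC (0.167%) had no match in these 3 windows. A second RefSeq start of Vldlr and one of Tmem215, both inside the gene, likewise held no match to any of the 6 motifs in the 250 bases before them. These are letter matches only, searched on both strands, and none overlapped another. The windows had unlike base composition, with 62.4% G and C for Tgfbi, 41.6% for Vldlr and 50% for Tmem215.

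The labelled cell type was checked against its markers before the results. In all 14 libraries Kit lay between 601 and 1680 CPM, Ly6a between 94.1 and 154, and Slamf1, which encodes CD150, between 40.4 and 117 CPM on library totals. Cd48 lay between 2.81 and 10 CPM and Flt3, which encodes Flk2, between 39.9 and 145, although the sort selects against both proteins. These ranges pool the treatments. At 1 day Cd48 had 8.21 to 10 CPM with IL-1β and 3.88 to 5.77 with PBS, while its 20-day ranges overlapped. At 20 days Slamf1 had 91.9 to 117 CPM with IL-1β and 40.4 to 69.6 with PBS. Flt3 then had 77.4 to 145 and 41.1 to 61.9 CPM. At 1 day the ranges of both overlapped, as did those of Kit and Ly6a at each duration. Procr, listed with these markers, was lower with IL-1β at 1 day, at 53.0 to 64.4 CPM against 72.6 to 83.7 with PBS. Its 20-day ranges overlapped. The part of these differences in the levels of the 4 genes was not tested. Totals ran from 21654896 to 29441947 counts per library, where 3 counts correspond to 0.102 to 0.139 CPM. The sum of 13 neutrophil genes was 2430 CPM in IL-1β 20-day replicate 3, whereas the remaining 13 libraries ranged from 2.98 to 14.9 CPM. The 20-day log2 differences of the 4 genes, Itgb2 and Itgam are given with and without it, and those of 10 further genes as a range without it. Other 20-day values include it unless stated. In bulk libraries such as these, more cells with a transcript and more transcript per cell cannot be told apart.

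Tgfbi was the most abundant of the 4 per length of transcript and was about 4-fold higher with IL-1β. The 3 PBS libraries of day 1 had 18.6, 24.2 and 19.4 CPM and the 3 IL-1β libraries 102, 84.5 and 75.7 CPM. After 20 days the 4 PBS libraries had 22.4, 24.7, 20.1 and 18.4 CPM and the 4 IL-1β libraries 116, 97.6, 81.2 and 101 CPM. Both IL-1β groups thus lay above every PBS library with a wide empty range between them. The means were 20.7 ± 3.04 and 87.6 ± 13.6 CPM at 1 day (SD, n = 3 each) and 21.4 ± 2.78 and 98.9 ± 14.3 CPM at 20 days (SD, n = 4 each). On the log2 scale the fitted difference of IL-1β over PBS was 2.07 ± 0.14 at 1 day (SE, 4.21-fold) and 2.21 ± 0.12 at 20 days (4.63-fold). With counts of 404 to 660 per PBS library and 1873 to 3232 per IL-1β library, counting error was small beside the spread between libraries.

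Vldlr had nearly the same size of difference at both durations. At 1 day the PBS libraries had 36.9, 36.3 and 23.8 CPM and the IL-1β libraries 130, 106 and 83.2 CPM. At 20 days the PBS libraries had 29.4, 33.4, 29.8 and 23.5 CPM and the IL-1β libraries 103, 103, 91.4 and 93 CPM. The IL-1β libraries of 20 days were the tightest group of any of the 4 genes, with a coefficient of variation of 6.23%. At 1 day both treatments were lowest in the library of the naming set "10k", a tag in the titles whose meaning is not stated, so that the ratio within that set was close to the others. The fitted log2 difference was 1.73 ± 0.11 at 1 day (3.31-fold) and 1.75 ± 0.10 at 20 days (3.36-fold).

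Rcvrn was near the limit of detection in PBS libraries and was detected in every IL-1β library. The PBS libraries of day 1 had 3, 6 and 1 counts (0.119, 0.22 and 0.0481 CPM), and the IL-1β libraries 78, 42 and 44 counts (3.13, 1.73 and 1.61 CPM). After 20 days the PBS libraries had 6, 15, 1 and 7 counts (0.265, 0.6, 0.0338 and 0.306 CPM) and the IL-1β libraries 168, 107, 90 and 72 (6.03, 3.85, 3.9 and 2.82 CPM). No PBS library reached the lowest IL-1β library, and 2 of the 7 PBS libraries held a single count. Pooled over a group, the 10 PBS counts of day 1 amount to 0.137 CPM (exact Poisson 95% interval 0.0656 to 0.252) and the 164 IL-1β counts to 2.08 CPM (1.77 to 2.42). The ratio of the pooled counts was 15.2 at 1 day (exact binomial 95% interval 8.05 to 32.3) and 14.6 at 20 days (10 to 22). These intervals cover counting error only, since amplified reads carry no molecular identifiers. The fitted log2 difference was 4.04 ± 0.66 at 1 day and 3.87 ± 0.53 at 20 days, the largest of the 4 genes and the least precise.

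Tmem215 was low with PBS and varied most between libraries at 1 day. The PBS libraries of day 1 had 4, 32 and 36 counts (0.159, 1.17 and 1.73 CPM) and the IL-1β libraries 403, 288 and 154 counts (16.2, 11.9 and 5.62 CPM). The 20-day PBS libraries had 0.662, 1.6, 0.744 and 1.22 CPM and the IL-1β libraries 13, 13.4, 8.37 and 9.63 CPM. For this gene and the other 3, every IL-1β library lay above every PBS library at each duration, a direction fixed by the choice; the same held for 8.75% of tested genes at 1 day and 5.39% at 20 days. The 10k pair of libraries lay closer together than any other pair, with the highest PBS value and the lowest IL-1β value of the gene. The fitted log2 difference was 3.45 ± 0.59 at 1 day and 3.37 ± 0.49 at 20 days. The 1-day value fell to 2.74 without PBS replicate 1, and was 4.36 without PBS replicate 3 and 4.37 without IL-1β replicate 3, the 2 libraries of the 10k set. The 20-day value lay between 3.13 and 3.59 whichever library was left out.

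**Figure D1:**
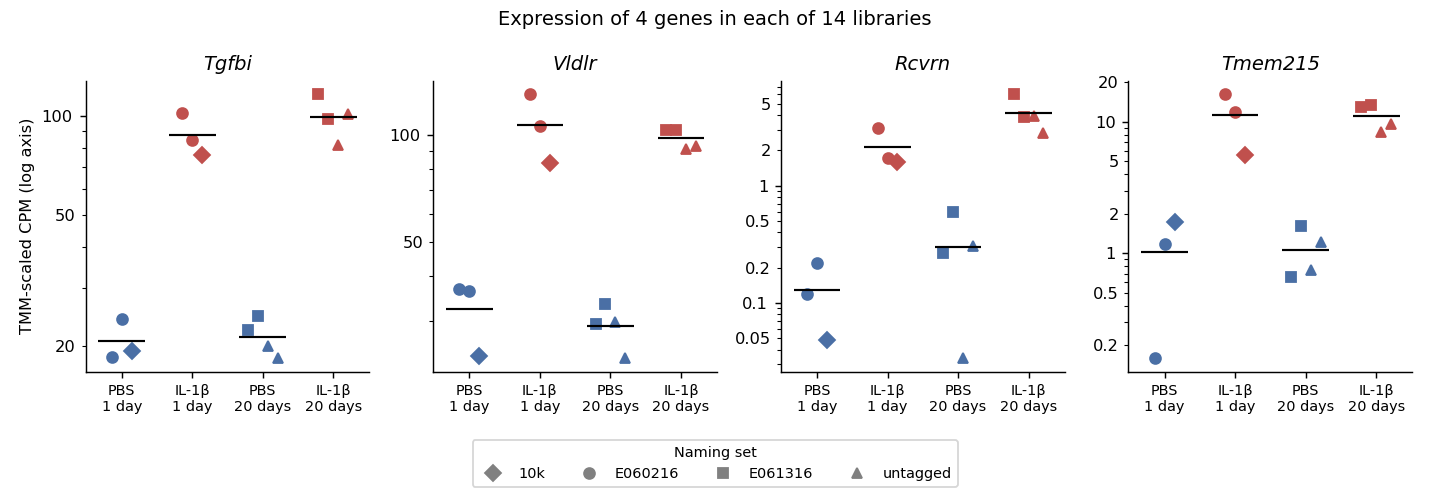
TMM-scaled CPM on a log axis of Tgfbi, Vldlr, Rcvrn and Tmem215 in the 3 or 4 libraries of each group; each point is a library, its shape the naming set in the titles, and the black line the group mean. For each gene every IL-1β library lies above every PBS library, with Tgfbi at 75.7 to 116 CPM against 18.4 to 24.7.

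Leaving out the neutrophil-rich IL-1β 20-day replicate 3 left the 20-day log2 differences at 2.26 for Tgfbi, 1.74 for Vldlr, 3.70 for Rcvrn and 3.43 for Tmem215. In that library Tgfbi (81.2 CPM), Vldlr (91.4 CPM) and Tmem215 (8.37 CPM) were the lowest of the 4 IL-1β values, and Rcvrn (3.9 CPM) was the second highest.

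Marker lists of other cells that a marrow sort could hold were set beside these values. The 15 monocyte and macrophage genes summed to 349 to 449 CPM with IL-1β and 500 to 588 with PBS at 1 day, and to 478 to 699 and 454 to 520 CPM at 20 days. Most of these sums was Lyz2, at 317 to 632 CPM, while Adgre1, which encodes the macrophage marker F4/80, stayed at or under 2.94 CPM. Cd68, which encodes a lysosomal protein of macrophages, was higher with IL-1β, at 15.8 to 20.5 CPM against 12 to 13.1 at 1 day and 20.7 to 31.5 against 11 to 15.2 at 20 days. Other genes of the list went the other way. C1qb had 1.48 to 4.91 CPM with IL-1β against 5.42 to 6.37 at 1 day, and 0.51 to 1.63 against 1.99 to 7.62 at 20 days. Vcam1 had 1.48 to 3.4 CPM with IL-1β against 3.88 to 6.38 at 1 day, and its 20-day ranges overlapped. The 12 endothelial genes summed to 860 to 888 CPM with IL-1β and 895 to 1040 with PBS at 1 day, and to 1050 to 1330 and 951 to 1100 at 20 days. Several of these, such as Tek, Vwf and Esam, are also known in stem cells. Cdh5, a defining gene of endothelium, had at most 0.255 CPM in any library and was at 0 in 5 of the 14. Other genes of the list differed by treatment. At 20 days Pecam1 had 121 to 142 CPM with IL-1β and 42.4 to 78 with PBS. Tek then had 131 to 148 and 66.3 to 121 CPM. Tie1 went the other way, at 198 to 259 CPM with IL-1β and 277 to 310 with PBS. The 9 stromal genes of 10 with a row summed to 26.0 to 36.4 CPM with IL-1β and 27.9 to 46.3 with PBS at 1 day, and to 42.7 to 60 and 31.7 to 40.0 CPM at 20 days, with Dcn at 0 in 12 of 14 libraries. Pdgfrb had 14.2 to 30.1 CPM with IL-1β and 9.8 to 13.8 with PBS at 20 days. Col1a2 was lower with IL-1β at 1 day, at 12.2 to 17.2 CPM against 20.9 to 33. The 8 erythroid genes, which include the globins, summed to 62.8 to 84.6 CPM with IL-1β and 42.0 to 56.8 with PBS at 1 day, and to 154 to 191 and 46.9 to 72.4 at 20 days. At 20 days most of the IL-1β sum was Hbb-bt, at 94.9 to 133 CPM on library totals, while Hbb-bs had 0.778 to 0.911 CPM with IL-1β and 1.49 to 4.81 with PBS. Klf1 then had 12.3 to 15.3 CPM with IL-1β and 8.15 to 9.36 with PBS, and Epor 38.7 to 44.8 and 24.9 to 30.2 CPM. The 1-day ranges of Klf1 and Epor overlapped. The 7 dendritic cell genes, Flt3 among them, summed to 42.7 to 52.3 and 50.3 to 72.6 CPM at 1 day, and to 80.0 to 148 and 47.2 to 65.0 at 20 days. Flt3 made up nearly all of the dendritic sum, with 77.4 to 145 CPM at 20 days with IL-1β, while Zbtb46 had 0.51 to 2.98 CPM with IL-1β and 1.93 to 4.77 with PBS. The 7 B cell genes summed to 39.2 to 51.7 CPM with IL-1β and 45.7 to 50 with PBS at 1 day, and to 52.4 to 62.8 and 42.0 to 54.4 at 20 days. The 5 T and NK cell genes with a row reached 17.7 CPM, the 7 megakaryocyte genes 1110 to 1960 CPM, and the 5 mast cell and basophil genes 27.6 CPM in the neutrophil-rich library and at most 9.72 elsewhere. The part of the Cd68 level and of the erythroid, dendritic, stromal, monocyte and endothelial sums in the levels of the 4 genes was not tested.

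Titles group the libraries into 4 naming sets, each balanced between IL-1β and PBS within 1 duration, which allows a ratio of means within each. Tgfbi was 3.9-fold higher with IL-1β in the 10k set (1 library each), 4.37-fold in E060216, 4.53-fold in E061316 and 4.74-fold in the untagged set (2 each). Vldlr was 3.5-, 3.22-, 3.27- and 3.46-fold higher in the same order, the narrowest range of the 4 genes. Rcvrn was 33.4-, 14.3-, 11.4- and 19.8-fold higher, where the first ratio rests on 1 PBS count. Tmem215 was 3.25-fold higher in the 10k set against 21.0-, 11.7- and 9.15-fold in the others.

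The difference between the 20-day and the 1-day log2 differences was 0.14 ± 0.18 for Tgfbi, 0.02 ± 0.15 for Vldlr, -0.17 ± 0.74 for Rcvrn and -0.08 ± 0.73 for Tmem215 (SE). Each was smaller than its standard error. It was not tested, because genes were chosen for a large value at both durations. For Rcvrn and Tmem215 the standard errors leave room for a change of more than 1.5-fold in either direction between durations.

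The comparison of PBS at 20 days with PBS at 1 day is another contrast than those of the choice, though its libraries are the baselines of both chosen differences and it is thus not independent of the choice. It was tested with edgeR's quasi-likelihood test over 15466 genes. The log2 difference was 0.04 ± 0.15 for Tgfbi, -0.15 ± 0.17 for Vldlr, 1.13 ± 0.72 for Rcvrn and 0.06 ± 0.55 for Tmem215, each with an adjusted p of 0.999. For Rcvrn and Tmem215 the standard errors would hide a change of 1.5-fold. Over all genes 0 passed (0% of those tested), against 675 at an unadjusted p under 0.05 and 10 called by DESeq2. Duration, the age of the mice and naming set cannot be told apart in this comparison.

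Divided by exon length, the order with PBS was Tgfbi, Vldlr, then Tmem215 and Rcvrn. Over the 7 PBS libraries the levels per kilobase of exon were 5.6 ± 0.705 CPM for Tgfbi, 3.02 ± 0.54 for Vldlr, 0.22 ± 0.117 for Tmem215 and 0.219 ± 0.187 for Rcvrn (SD). The last 2 did not differ beyond their spread. Over the 7 IL-1β libraries the levels per kilobase were 24.9 ± 3.76 CPM for Tgfbi, 10.1 ± 1.48 for Vldlr, 3.17 ± 1.45 for Rcvrn and 2.35 ± 0.746 for Tmem215, and again the last 2 overlapped while the other levels did not. Exon lengths are unions over annotated transcripts (3771, 10068, 1040 and 4741 bases for Tgfbi, Vldlr, Rcvrn and Tmem215), so a level per length depends on which transcripts these cells use.

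As candidate markers of exposure, the genes were described by the lowest of the 7 IL-1β libraries over the highest of the 7 PBS libraries. This ratio was 3.25 for Tmem215 (5.62 over 1.73 CPM), 3.06 for Tgfbi (75.7 over 24.7), 2.68 for Rcvrn (1.61 over 0.6) and 2.26 for Vldlr (83.2 over 36.9). Every IL-1β library lay above every PBS library in 97 of 15466 tested genes, 0.627%, and the 4 held the 4 highest ratios among all tested genes. They were chosen from the same libraries, so the separation is not evidence that it would recur in others. The next genes were Susd2 at 1.96 and Cd53 at 1.91, and 9 genes in all, 0.0582%, reached 1.5. The ratio rests on single libraries at each end, and for Tmem215 both are of the 10k set. In absolute terms the markers differ in depth, since IL-1β 1-day replicate 3, the lowest for both, held 2073 counts of Tgfbi but 44 of Rcvrn.

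**Figure D2:**
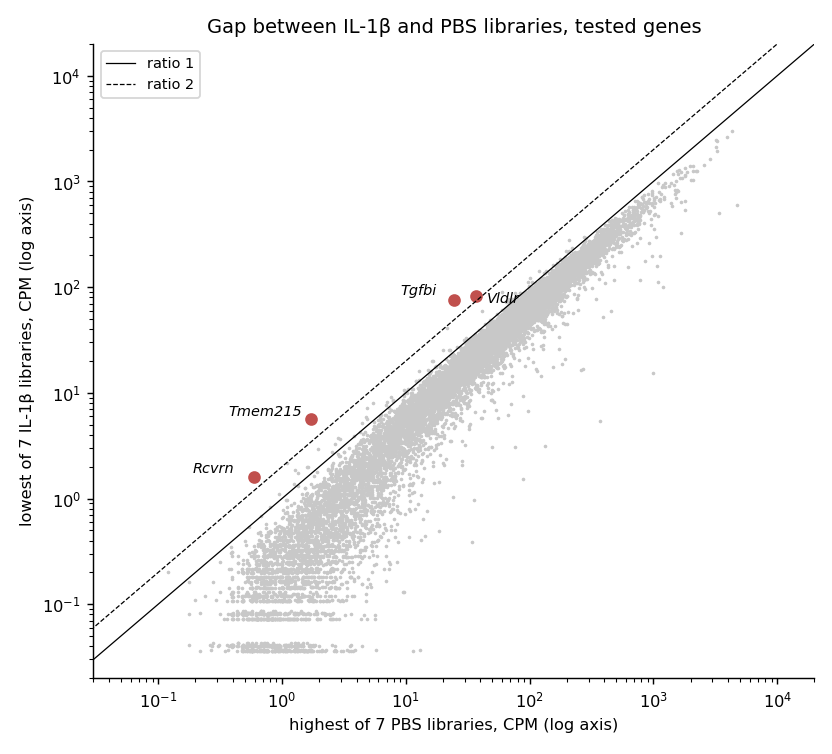
Each grey point is a tested gene, with its highest CPM among 7 PBS libraries against its lowest CPM among 7 IL-1β libraries, both on log axes; 1107 genes with a 0 in either are not drawn. The 4 genes (red) lie above the dashed line that marks a ratio of 2, and no other gene does.

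The 4 genes stand within a larger group with higher RNA at both durations. In the edgeR fit, 389 genes were called higher at 1 day (2.52% of those tested, adjusted p under 0.05) and 609 at 20 days (3.94%), and 108 were in both lists (0.698%), which is 27.8% of the first and 17.7% of the second. The PBS libraries of the durations are separate. Genes called higher by at least 2-fold numbered 58 at 1 day (0.375%) and 165 at 20 days (1.07%), with 17 in both (0.11%). The 108 became 67 without IL-1β 1-day replicate 1 and 67 without IL-1β 20-day replicate 3, and the 17 became 11 without PBS 1-day replicate 2 and 11 without IL-1β 1-day replicate 1. Ranked by the smaller of the 2 log2 differences, Rcvrn was the first, Tmem215 the second, Tgfbi the fourth and Vldlr the fifth. The choice set no numerical threshold. Just inside it lay Vldlr at 1.73, and the genes not chosen with a value near it were Cd53 at 2.24 and Hbb-bt at 1.61. Within the list of a single duration the ranks by log2 difference were spread more widely. Rcvrn was 3rd of 389 at 1 day and 16th of 609 at 20 days, and Tmem215 5th and 23rd. Tgfbi was 14th of 389 by log2 difference at 1 day and 44th of 609 at 20 days, and Vldlr 18th and 75th.

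**Figure D3:**
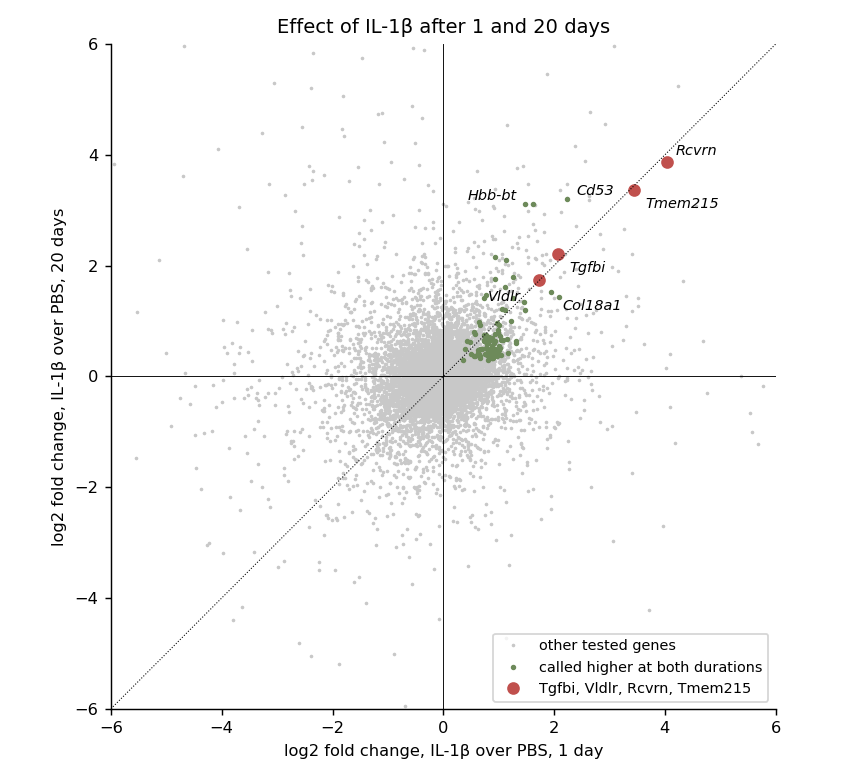
Log2 fold change of IL-1β over PBS at 1 day against that at 20 days for all tested genes (grey), the genes called higher at both durations (green, 108 with the 4 red ones) and Tgfbi, Vldlr, Rcvrn and Tmem215 (red); the dotted line marks equal values, and 37 genes lie outside the axes. The 4 genes lie close to the dotted line, with Rcvrn at 4.04 and 3.87, while Cd53 and Hbb-bt lie above it.

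The 10 genes that follow by the same ranking, predicted genes left out, are also described without a test. Cd53, which encodes a leukocyte tetraspanin, went from 10.7 ± 2.9 to 50.9 ± 9.17 CPM at 1 day and from 15 ± 6.31 to 139 ± 16.6 CPM at 20 days. Hbb-bt, a beta globin gene, had a log2 difference of 1.61 ± 0.27 at 1 day and 3.11 ± 0.24 at 20 days. It is nearly identical to Hbb-bs, so reads may have been split between them and its value is uncertain. Susd2, a membrane protein gene, had 1.48 ± 0.39 and 3.11 ± 0.35. In these 3 genes the 20-day value was the larger one, while for Tgfbi and Vldlr the 2 values differed by 0.14 and 0.02.

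Col18a1, which encodes a collagen of basement membranes, had 1.95 ± 0.26 at 1 day and 1.52 ± 0.22 at 20 days, with 61.9 ± 8.98 CPM against 16.4 ± 4.71 at 1 day. Ackr1, an atypical chemokine receptor gene, had 2.08 ± 0.40 and 1.43 ± 0.34. Selp, which encodes P-selectin, an adhesion molecule of platelets and endothelium, had 1.46 ± 0.19 and 1.35 ± 0.16, with 56.6 ± 11.5 and 144 ± 15 CPM at 20 days. Lrrn3, a leucine-rich repeat gene, had 1.25 ± 0.31 and 1.41 ± 0.27. In these 4 genes, as in the 4 chosen ones, every IL-1β library lay above every PBS library, though for Selp only by 71.0 against 70.8 CPM.

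Socs3, the feedback inhibitor of cytokine receptors, had 1.25 ± 0.33 and 1.80 ± 0.28, but its PBS libraries of day 1 had 14.4, 18.8 and 145 CPM. The last is the 10k library, whose IL-1β counterpart had 159 CPM, so Socs3 separated the groups within E060216 and hardly within 10k. Gpc3, which encodes a glypican, had 1.47 ± 0.17 and 1.19 ± 0.15, and Clca3a1 had 1.14 ± 0.21 and 2.10 ± 0.18. The IL-1β and PBS ranges of these 3 genes overlapped when both durations were pooled. Without IL-1β 20-day replicate 3 the 20-day log2 differences of the 10 genes ran from 1.10 for Gpc3 to 3.24 for Cd53.

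**Figure D4:**
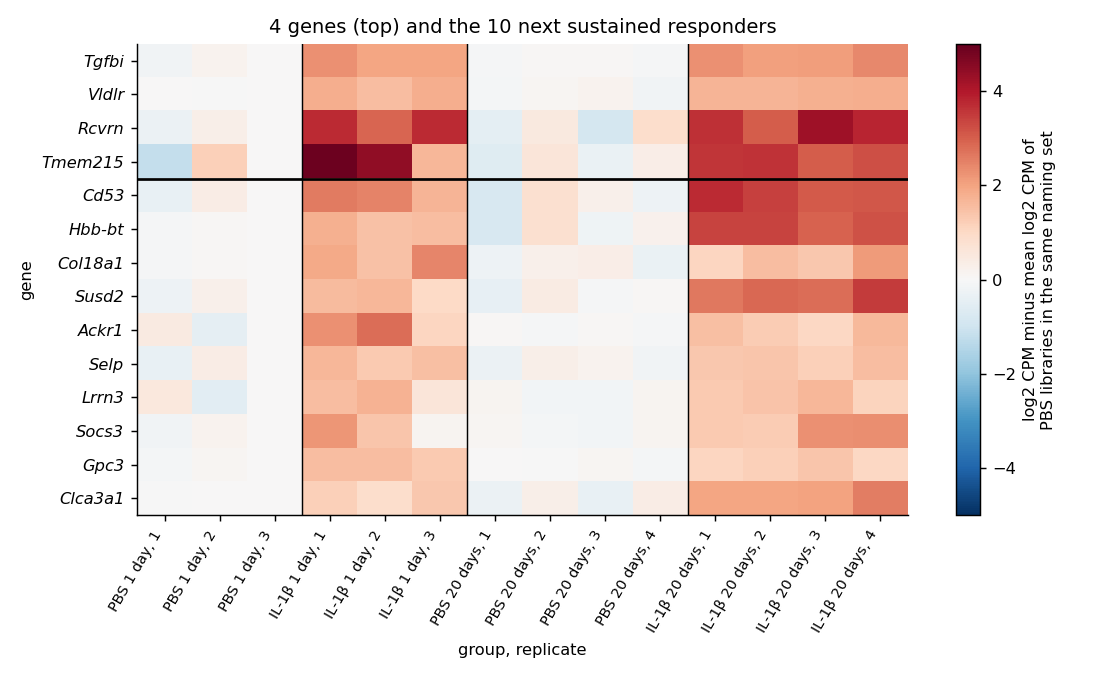
Log2 CPM of the 4 genes (above the line) and of the next 10 genes by the smaller log2 difference (rows) in 14 libraries (columns, by group and replicate), relative to the mean of the PBS libraries of the same naming set. IL-1β columns are red throughout, from 0.13 for Socs3 in IL-1β 1-day replicate 3 to 4.90 for Tmem215 in IL-1β 1-day replicate 1.

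The levels of the 4 genes followed each other across libraries. Over the log2 CPM of the 14 libraries Pearson's r was 0.977 for Tgfbi with Vldlr, 0.951 for Tgfbi with Rcvrn, 0.939 for Tgfbi with Tmem215, 0.917 for Vldlr with Rcvrn, 0.883 for Vldlr with Tmem215 and 0.898 for Rcvrn with Tmem215. These values mostly restate the contrast of IL-1β with PBS that chose the genes. Taken as deviations from group means, r was 0.653 for Tgfbi with Vldlr and -0.0669 for Vldlr with Tmem215. All points share library depth and composition.

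The genes most like each of the 4 over the 14 libraries included the other members. Tgfbi was followed, after Vldlr and Rcvrn, by Gpr4, a proton-sensing receptor gene (r = 0.95), Pcp4l1 (0.949) and Cdk6, the G1 kinase gene (0.944). Vldlr was followed, after Tgfbi, by Pir (0.948), the guanine exchange factor gene Mcf2l (0.946), the DNA damage kinase gene Chek2 (0.944) and Col18a1 (0.935). Chek2 differed little in level, with 70.2 ± 4.6 CPM with PBS and 86.4 ± 3.87 with IL-1β at 1 day. A high r thus shows a like pattern over the libraries on the log2 scale, and not a like size of difference. Rcvrn was followed, after Tgfbi, by Plscr1, a phospholipid scramblase gene (0.942), Clca3a1 (0.935), the transporter gene Slco3a1 (0.924) and the tropomyosin gene Tpm4 (0.918). Tmem215 was nearest to Slco3a1 (0.951) and Emilin2, a matrix glycoprotein gene (0.94), then to Tgfbi, Cd53 (0.911) and Cdk6 (0.907). Of the 13 genes named here that are not among the 4, Pir and Chek2 were not called higher at both durations.

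Relatives and partners of each gene were taken from lists of its family. The shares of all tested genes given beside the lists, and beside the neighbours below, are of edgeR calls at adjusted p under 0.05. They are no background for the counts at an unadjusted p or by DESeq2. Over all genes the DESeq2 test called 1406 at 1 day and 1808 at 20 days. The number of all genes at an unadjusted p under 0.05 is not given for these contrasts. The list for Vldlr held 24 tested genes of its lipoprotein receptor family, their ligands and their handling proteins. At 1 day 0 were called higher and 2 lower (background 2.52% higher and 1.83% lower), with a median log2 difference of -0.26 beside -0.01 over all tested genes; 6 had an unadjusted p under 0.05 and DESeq2 called 3. At 20 days 0 were called higher and 1 lower (background 3.94% and 3.52%), with a median of -0.07; 4 had an unadjusted p under 0.05 and DESeq2 called 2. The ligand gene Apoe fell by 0.67 ± 0.10 at 1 day (adjusted p = 0.00115) and had 0.25 ± 0.08 at 20 days (adjusted p = 0.0799). Thbs1, which encodes the secreted ligand thrombospondin, fell by 2.23 ± 0.41 at 1 day (adjusted p = 0.00556) and by 2.34 ± 0.35 at 20 days (adjusted p = 0.000999). The 1-day call of Thbs1 ended without IL-1β 1-day replicate 1 (adjusted p = 0.0532) and with no filter (adjusted p = 0.0588).

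A relative of Vldlr and a protein that handles it were looked at outside the rule for naming genes. Lrp8, the other reelin receptor gene, had 0.23 ± 0.15 at 1 day (adjusted p = 0.461) and -0.11 ± 0.13 at 20 days (adjusted p = 0.723). Mylip, whose product is the ubiquitin ligase that marks Vldlr for degradation, had -0.37 ± 0.18 and 0.09 ± 0.15 (adjusted p = 0.286 and 0.824). Reln, the reelin gene, did not pass the filter on low counts.

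Of 12 genes of the neuronal calcium sensor family, to which recoverin belongs, 7 could be tested. By edgeR 0 were called at 1 day (1 at an unadjusted p under 0.05, 0 by DESeq2) and 0 at 20 days (2 and 1), beside 4.35% and 7.46% of all tested genes. Their median log2 differences were -0.25 and -0.32. The most abundant were Hpcal1 (-0.27 ± 0.11, adjusted p = 0.197, and 0.16 ± 0.10, adjusted p = 0.398) and Kcnip3 (-0.25 ± 0.15, adjusted p = 0.425, and 0.19 ± 0.13, adjusted p = 0.459).

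Of 26 photoreceptor genes in the list, 16 have a row in the table and 9 passed the filter. Gnat1, a transducin gene of rods, had at most 4 counts in a library, and the phosphodiesterase genes Pde6a and Pde6c 1 each. At 1 day 2 of the 9 were called higher and 0 lower, with a median log2 difference of -0.27, and at 20 days 2 higher and 1 lower, with a median of 0.54. With so few genes, each call weighs heavily in the share called, 22.2% at 1 day and 33.3% at 20 days beside 4.35% and 7.46% of all tested genes. Abca4, a retinal lipid transporter gene, rose by 1.11 ± 0.21 at 1 day (adjusted p = 0.00771) and 1.19 ± 0.18 at 20 days (adjusted p = 0.00128). Its 1-day call ended without PBS replicate 1, PBS replicate 2 or IL-1β replicate 1 of that day (adjusted p = 0.0521 to 0.062). Prom1, which encodes a membrane glycoprotein also known from stem and progenitor cells, rose by 3.30 ± 0.66 at 1 day (adjusted p = 0.0103) and had 0.90 ± 0.52 at 20 days (adjusted p = 0.362). Its 1-day call ended without any 1 of the same 3 libraries (adjusted p = 0.0516 to 0.0623). At 20 days the disc protein gene Rom1 rose by 0.81 ± 0.20 (adjusted p = 0.0226) and the transducin gene Gnat2 fell by 0.72 ± 0.19 (adjusted p = 0.0342). The Rom1 call ended without PBS replicate 1 or 3 or IL-1β replicate 1, 3 or 4 of the 20-day groups (adjusted p up to 0.114), and that of Gnat2 without PBS replicate 1 or 3 or IL-1β replicate 3 or 4 (adjusted p up to 0.0981).

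The list for Tgfbi held 19 tested genes of FAS1 proteins, integrins and matrix. At 1 day 1 was higher and 2 were lower (median log2 difference -0.06), and at 20 days 2 were higher and 1 was lower (median 0.25). The share called was 15.8% at each duration, beside 4.35% and 7.46% of all tested genes. An unadjusted p under 0.05 was found for 5 and 8 of the genes, and DESeq2 called 3 and 4. Bgn, the gene of the matrix proteoglycan biglycan, fell by 0.91 ± 0.14 (adjusted p = 0.00185) and 0.76 ± 0.12 (adjusted p = 0.00146). Col1a2, a collagen I chain gene, fell by 0.79 ± 0.15 at 1 day (adjusted p = 0.00856). That call ended without PBS replicate 2 or IL-1β replicate 2 of that day (adjusted p = 0.0705 and 0.0584). Fn1, the fibronectin gene, outside the rule for naming genes, was the 1 called higher at 1 day (1.27 ± 0.28, adjusted p = 0.0205). It had 12.2 ± 5.0 CPM with IL-1β and 4.8 ± 0.824 with PBS at 1 day. Whether its call held with a library left out was not looked at. At 20 days the leukocyte integrin genes Itgb2 (1.11 ± 0.10, adjusted p = 2.55e-05) and Itgam (1.73 ± 0.32, adjusted p = 0.00427) rose. Both are also known in neutrophils, and without IL-1β 20-day replicate 3 they had 1.13 (adjusted p = 0.00015) and 1.70 (adjusted p = 0.0136). Postn, which encodes the nearest FAS1 relative of Tgfbi, was under 1 CPM on average in each group, with -0.71 ± 1.19 and -2.19 ± 1.01 (adjusted p = 0.82 and 0.235).

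A list of genes tied to TGF-β, as targets or as parts of its pathway, held 19 tested genes. At 1 day 0 were called higher and 1 lower (median log2 difference -0.18, 4 at an unadjusted p under 0.05, 3 by DESeq2). At 20 days 1 was called higher and 1 lower (median 0.05, 9 at an unadjusted p under 0.05, 6 by DESeq2). The share called was 5.26% and 10.5%, beside 4.35% and 7.46% of all tested genes. The gene lower at both was Ltbp3, which encodes a binding protein of latent TGF-β, at -0.45 ± 0.12 (adjusted p = 0.0475) and -0.39 ± 0.10 (adjusted p = 0.0332). The gene higher at 20 days was Id1, at 0.84 ± 0.21 (adjusted p = 0.0235). These calls were fragile. That of Ltbp3 ended in 10 of 14 leave-one-out fits at 1 day (adjusted p up to 0.217) and 5 of 14 at 20 days (up to 0.12). The 4 that kept its 1-day call left out PBS 1-day replicate 3, PBS 20-day replicate 4, or IL-1β 20-day replicate 1 or 4, and the 5 that ended its 20-day call left out PBS replicate 1 or 2 or IL-1β replicate 1, 2 or 3 of the 20-day groups. That of Id1 ended without PBS replicate 1, 3 or 4 or IL-1β replicate 2, 3 or 4 of the 20-day groups (adjusted p up to 0.0922). Tgfb1 itself had 0.24 ± 0.10 and 0.02 ± 0.09 (adjusted p = 0.219 and 0.93).

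The nearest genes on the chromosome among those counted and placed, 2 on each side of each gene, were looked at. Annotated genes without counts in the deposited data were passed over. Of these 16 genes 6 had enough counts to test, and by edgeR 0 were called at 1 day (3 at an unadjusted p under 0.05, 0 by DESeq2) and 0 at 20 days (0 and 0). With 4.35% and 7.46% of all tested genes called, 0 of 6 is close to the background. Smad5, which starts 63448 bases beyond Tgfbi, had 0.02 ± 0.11 and -0.14 ± 0.10 (adjusted p = 0.943 and 0.492), with 96.6 ± 10.5 and 99.0 ± 17.2 CPM at 1 day. Smarca2, a chromatin remodeller gene 438162 bases before Vldlr, had -0.36 ± 0.15 and -0.18 ± 0.13 (adjusted p = 0.208 and 0.491), and D19Bwg1357e, now named Pum3, 134467 bases beyond it, had 0.22 ± 0.09 and -0.16 ± 0.08 (adjusted p = 0.208 and 0.253). Rfx3, beyond Pum3, had -0.10 ± 0.25 and 0.19 ± 0.21 (adjusted p = 0.885 and 0.705), and Fbxl21, before Tgfbi, had -0.16 ± 0.92 and -0.68 ± 0.70 (adjusted p = 0.957 and 0.663). Ndufb6, a respiratory chain gene before Tmem215, had 0.43 ± 0.17 and -0.21 ± 0.15 (adjusted p = 0.194 and 0.491). None of the 4 neighbours of Rcvrn passed the filter, and Gas7, which ends 6336 bases before it, had at most 23 counts in a library.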

How the data were processed

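Per the labels' protocols, 1 ng of RNA was amplified with SMARTer chemistry, made into Nextera XT libraries and read from a single end on a HiSeq2500. Cufflinks 2.0.2, Cuffdiff, DESeq2 1.12.3, Trimmomatic 0.32, HTSeq 0.6.1, STAR 2.4.2a and the build GRCm38.p4 appear, with no roles, in the submitters' processing notes. The sources used here do not give the annotation or strand setting. The authors deposited raw whole-number counts per gene symbol for 14 libraries (24833 genes, no total under 2), and no normalisation is recorded for them.

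Counts were fitted with edgeR 4.0.16 in R 4.3.3 (TMM, filterByExpr with minimum count 10, two-sided robust quasi-likelihood test, p adjusted by Benjamini and Hochberg over 15466 genes, threshold 0.05), with all libraries, a term for naming set and an IL-1β effect per duration (8 residual degrees of freedom). The PBS comparison used group means without that term. The SE is the absolute log2 fold change over the square root of F and is approximate. The script was tested on simulated data. Replicates of a group differed by 10.7 to 74.4 in chi-square per degree of freedom, more than sampling noise.

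The 4 genes and the gene lists were chosen with earlier results of these data known. By rule the text names, besides the 4, the 5 genes most correlated with each over log2 CPM (prior count 2). It also names the next 10 by the smaller log2 fold change. From each family list it names up to 4 called genes, or the 2 most abundant where none was called. The 2 nearest counted genes on each side are named too (GENCODE M21, with RefSeq synonyms for 640 symbols, and 1134 symbols not placed). Alternatives were other scaling factors, no filter, DESeq2 1.42.0, no naming set term, a replicate block and leaving out each library. Numbers of replicates come from the titles; the 10k libraries, which have none, are replicate 3.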

Additional observations from a re-analysis of the deposited data

Results flagged for a closer look

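None of the 4 genes had a library far from the rest of its 20-day group (the gap to the nearest library over the range, against the 95% critical value of 0.829 for 4 libraries). Of 50 sets of 4 values examined, over the 4 genes, the next 10 and the marker lists, 5 had such a library, and chance gives about 1 in 20. Neutrophil genes summed to 2430 CPM in IL-1β 20-day replicate 3 and to 7.13 to 11.1 CPM in the other 3. In the same library mast cell and basophil genes summed to 27.6 CPM (8.59 to 9.72 in the others) and Clca3a1 had 53.8 CPM (78.6 to 82.3 in the others). Cd53 had 164 CPM in IL-1β 20-day replicate 1 and 128 to 133 in the others. Susd2 had 0.839 CPM in PBS 20-day replicate 2 and 0.406 to 0.441 in the others.

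For 3 of the family list genes named by rule the IL-1β effect differed between durations, by the interaction in the edgeR fit. The interaction was not looked at in the other genes of the lists. The named genes were mostly picked for a small p at 1 of the durations, and the share of all tested genes that passed the interaction is not given. The 20-day effect exceeded the 1-day effect by 0.92 ± 0.13 for Apoe (adjusted p = 0.00553), 1.17 ± 0.16 for Itgb2 (adjusted p = 0.00553) and 1.02 ± 0.20 for Col1a2 (adjusted p = 0.0276).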

How the results depend on the processing

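The 20 alternatives were DESeq2 and upper-quartile scaling factors, no filter, the DESeq2 test, no naming set term, the replicate block and leaving out each of 14 libraries. The log2 differences at 1 and 20 days, whose direction the choice of the 4 genes fixed, ranged from 1.95 to 2.17 and 2.12 to 2.26 for Tgfbi, 1.66 to 1.82 and 1.68 to 1.81 for Vldlr, 3.78 to 4.51 and 3.47 to 4.28 for Rcvrn, and 2.74 to 4.37 and 3.13 to 3.59 for Tmem215. With each library left out, PBS at 20 days over PBS at 1 day ranged from -0.03 to 0.17 for Tgfbi, with its sign turned without PBS 1-day replicate 1 or PBS 20-day replicate 2 (-0.03 each). For Tmem215 it ranged from -0.45 to 0.65, with its sign turned without PBS 1-day replicate 1 (-0.45), PBS 20-day replicate 2 (-0.21) or PBS 20-day replicate 4 (-0.02).

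Counts of genes depended more on the processing, and the cause was not tested. The 672 genes called at 1 day became 1406 with the DESeq2 test, 290 with no naming set term, 383 with the replicate block, and 228 to 1244 with a library left out (PBS 1-day replicate 1, 331; PBS 1-day replicate 2, 239; IL-1β 1-day replicate 1, 228; IL-1β 1-day replicate 2, 329; PBS 20-day replicate 4, 1244). The 1154 at 20 days became 1808, 525, 672 and 648 to 1156 (IL-1β replicate 1, 716; IL-1β replicate 4, 648). The 108 genes higher at both became 186, 43, 62 and 67 to 130, and the 17 at least 2-fold higher at both became 35 with DESeq2 and 11 to 25 with a library left out. Calls in the family lists ranged from 3 to 9 at 1 day and 5 to 12 at 20 days with a library left out (1 day, without PBS replicate 1, 4, without PBS replicate 2, 3, without IL-1β replicate 1, 3, without IL-1β replicate 2, 5; 20 days, without IL-1β replicate 3, 5), and were 17 at 20 days with DESeq2.

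The replicate block used titles that share only a number, since deviations of same-numbered libraries correlated at 0.0207, 0.061 and 0.187 at 1 day and 0.0276, 0.224, 0.0917 and 0.0805 at 20 days. Not every library correlated best with its own number. With the block the calls of Ltbp3 (adjusted p = 0.127 and 0.0912), Gnat2 (0.0826) and Rom1 (0.0644) ended, and with no naming set term those of Ltbp3 (0.164 and 0.138), Gnat2 (0.0738) and Id1 (0.792). Depth limits Rcvrn and Tmem215 most, with as few as 1 and 4 counts in a PBS library.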
